A study of Mus musculus with 6 samples.

Results

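The genes described here are the core of the TGF-beta pathway, chosen by a fixed list of 10 gene identifiers: ligand genes, receptor genes, signal-carrying SMAD genes and genes that respond to the pathway. Of these 10, 9 were analysed among the 30543 genes of the count table, and all 9 passed the filter on low counts that left 15736 genes for testing. *SMAD4* (ENSG00000141646) was not analysed here, so no level is given for it and nothing is said on whether these cells expressed it. RNA came from CFPAC-1 cells, an established human pancreatic adenocarcinoma (PAAD) line, after transfection with si-KRT7, a siRNA against the ductal keratin gene *KRT7* (3 libraries), or with si-Control, its negative control (3 libraries). Every library came from this single line after siRNA transfection, and no untransfected cells were among the samples. The labels state neither the duplex used for the sequenced libraries nor the time after transfection. They name the mouse as the organism, whereas all 30543 identifiers in the table are human Ensembl identifiers.

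TGF-beta ligands bind the type II receptor, encoded by *TGFBR2*, which recruits and phosphorylates the type I receptor, encoded by *TGFBR1*. The activated type I receptor phosphorylates SMAD2 and SMAD3, which join SMAD4 and enter the nucleus to regulate transcription. SMAD7, an inhibitory SMAD, and SKIL, a nuclear repressor also called SnoN, are themselves induced by the pathway and feed back on it. ID1, an inhibitor of helix-loop-helix transcription factors, is a classical target of BMP signalling that also responds to TGF-beta. In PAAD the pathway is known for a growth-restraining arm that tumours often lose through *SMAD4* and for a role in invasion and stroma formation.

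Total counts lay between 28208896 and 36315802 per library. Replicate 2 of si-KRT7 stood apart from its group: its correlation with si-KRT7 replicates 1 and 3, over the log2 CPM (counts scaled to a common library total) of the genes tested, was 0.982 with each, whereas those 2 replicates had 0.992 with each other. Its correlation with each si-Control library, 0.986, was higher than with its own group. Without that library 42.9% of the 16202 genes then tested had an adjusted p under 0.05 in edgeR's quasi-likelihood test. With all 6 libraries the share was 2.07% of 15736 genes. The fold change of each gene is therefore also given without si-KRT7 replicate 2. That library was left out after its distance from its group was seen in these same data. The fit without it rests on 2 si-KRT7 libraries that lie close together, against 3 si-Control libraries. The common coefficient of variation between replicates in edgeR was 0.130 with all libraries and 0.048 without replicate 2. Intervals and adjusted p-values of that fit are therefore too narrow and too small to take at face value. The labels do not say whether the libraries of a group came from separate cultures, so the p-values measure only the spread between these samples. In bulk RNA, fewer cells of a type and less RNA per cell cannot be told apart. The *KRT7* row and epithelial markers were not looked up, since the name tables used here are those of the mouse.

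With all 6 libraries, none of the 9 genes passed an adjusted p of 0.05 in edgeR, the limit that 2.07% of all genes passed (0.712% higher and 1.35% lower in si-KRT7 cells). At an unadjusted p under 0.05 there were 4 of the 9 (*SMAD3*, *TGFB1*, *ID1* and *TGFBR1*), against 18.6% of all genes tested. Without si-KRT7 replicate 2 there were 6 of the 9, against 48.9% of all genes. The DESeq2 Wald test called 3 of the 9, *TGFB1*, *SMAD3* and *ID1*, each lower in si-KRT7 cells, at a background of 7.30%. An edgeR fit without a filter on counts called the same 3 genes, at a background of 4.41%. Limma-voom with sample quality weights, which gave little weight to si-KRT7 replicate 2, called 5 of the 9, at a background of 43.6%. The si-KRT7 and si-Control levels did not overlap for 4 of the 9 genes, where 24.4% of all genes tested were free of overlap. Leaving out si-KRT7 replicate 2, they did not overlap for 7 of the 9, beside 61.5% of all genes. Without si-KRT7 replicate 2, 6 of the 9 genes passed: *TGFB1*, *SMAD3* and *ID1* were lower, where 22.0% of all genes were called lower, and *TGFB2*, *TGFBR1* and *SMAD2* were higher, where 20.9% were called higher. In neither fit did any of the 9 exceed an absolute log2 fold change of 1, which 0.292% of all genes did together with the adjusted p with all libraries and 2.20% without replicate 2. The median log2 fold change of the 9 genes was -0.06 with all libraries and 0.03 without replicate 2, beside medians of 0.01 and -0.01 over all genes tested.

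**Figure D1:**
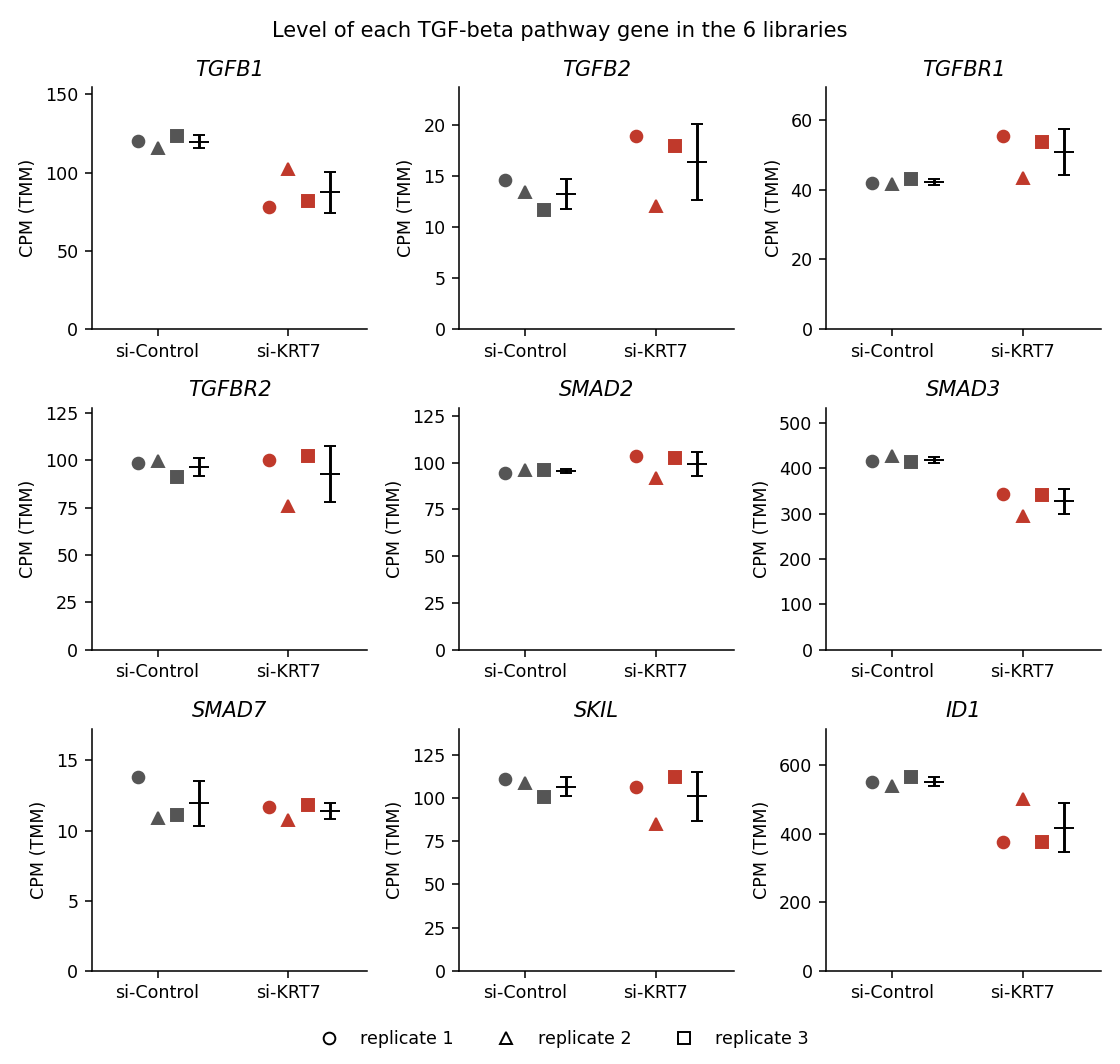
Level of each of the 9 genes (vertical axis, TMM-scaled CPM from 0, a separate scale per gene) in the 3 si-Control (grey) and 3 si-KRT7 (red) libraries, with marker shape giving the replicate number and bars the mean ± SD (n = 3). *TGFB1*, *SMAD3* and *ID1* lay lower and *TGFBR1* higher in every si-KRT7 library than in every si-Control library. For all 9 genes si-KRT7 replicate 2 (triangle) lay outside the span of replicates 1 and 3. The share of all genes tested with that position was not computed. Over all genes tested, replicate 2 lay a median of 0.34 log2 units from the mean of replicates 1 and 3.

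Of the ligand genes, *TGFB1* (ENSG00000105329), which encodes the most widely expressed TGF-beta isoform, lay lower in every si-KRT7 library than in any si-Control library. In si-Control replicates 1, 2 and 3 it stood at 120, 116 and 124 CPM, and in si-KRT7 replicates 1, 2 and 3 at 78.0, 102 and 82.0 CPM. The groups did not overlap, and si-KRT7 replicate 2 was the closest to the si-Control libraries. The mean was 119.8 ± 4.03 CPM in si-Control and 87.4 ± 13.0 CPM in si-KRT7 cells (SD, n = 3 each), a log2 fold change of -0.46 (95% interval -0.71 to -0.20, standard error 0.11) with an adjusted p of 0.0806 in edgeR, which missed the limit. Without si-KRT7 replicate 2 it was -0.59 (95% interval -0.68 to -0.49, adjusted p = 2.83e-10 in edgeR).

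*TGFB2* (ENSG00000092969), the isoform with the weakest direct binding to the type II receptor, pointed the other way in 2 of the 3 si-KRT7 libraries. It was at 14.6, 13.4 and 11.6 CPM in the si-Control libraries and at 18.9, 12.0 and 17.9 CPM in si-KRT7 replicates 1, 2 and 3. Replicates 1 and 3 were thus above every si-Control library and replicate 2 was among them. The log2 fold change was 0.31 (95% interval -0.10 to 0.71, adjusted p = 0.401 in edgeR) with all libraries and 0.48 (95% interval 0.27 to 0.68, adjusted p = 3.44e-04 in edgeR) without replicate 2. *TGFB2* rested on 331 to 703 counts per library, where counting error alone is 5.50% at the lowest count, and its si-Control libraries varied with a coefficient of variation (CV) of 11.2%.

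The receptor genes differed from each other. *TGFBR1* (ENSG00000106799), the type I receptor kinase that phosphorylates the SMADs, was at 42.1, 41.6 and 43.2 CPM in si-Control and at 55.6, 43.5 and 53.9 CPM in si-KRT7 cells. All 3 si-KRT7 values lay above the si-Control values, but replicate 2 did so by less than 1 CPM. The log2 fold change was 0.27 (95% interval 0.02 to 0.52, adjusted p = 0.232 in edgeR), and without replicate 2 it was 0.37 (95% interval 0.25 to 0.49, adjusted p = 9.55e-06 in edgeR).

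*TGFBR2* (ENSG00000163513), the ligand-binding type II receptor, was at 98.4, 99.8 and 91.1 CPM in si-Control and at 100.4, 75.9 and 102 CPM in si-KRT7 cells. Replicates 1 and 3 were just above the highest si-Control library, whereas replicate 2 was the lowest of all 6. The log2 fold change of -0.06 (95% interval -0.33 to 0.22, adjusted p = 0.848 in edgeR) turned to 0.07 (95% interval -0.03 to 0.16, adjusted p = 0.263 in edgeR) without replicate 2. The direction for *TGFBR2* thus rested on that library. The interval without it ended at 0.16 and is narrowed by leaving that library out.

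*SMAD3* (ENSG00000166949), which binds DNA directly and carries much of the transcriptional response to TGF-beta, had the smallest p of the 9 genes. It was at 417, 426 and 413 CPM in the si-Control libraries and at 343, 296 and 342 CPM in si-KRT7 replicates 1, 2 and 3. It differed from *TGFB1* and *ID1* in the place of replicate 2, which was the lowest si-KRT7 library for *SMAD3* and the nearest to si-Control for the other two. The si-Control libraries varied by a CV of 1.58%, and the means were 418.6 ± 6.60 CPM in si-Control and 327.1 ± 27.0 CPM in si-KRT7 cells (SD, n = 3 each). The log2 fold change was -0.36 (95% interval -0.54 to -0.17, standard error 0.08, adjusted p = 0.0654 in edgeR), and without replicate 2 it was -0.29 (95% interval -0.36 to -0.23, adjusted p = 7.65e-08 in edgeR).

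*SMAD2* (ENSG00000175387), whose protein is activated by the same receptor, was measured within a narrow range. It was at 94.4, 95.8 and 96.0 CPM in si-Control and at 103, 91.9 and 102 CPM in si-KRT7 cells, so that the groups overlapped through replicate 2. The log2 fold change was 0.06 (95% interval -0.13 to 0.24, adjusted p = 0.755 in edgeR). Without replicate 2 it was 0.11 (95% interval 0.02 to 0.19) with an adjusted p of 0.0426 in edgeR, just inside the limit.

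Of the responsive genes, *ID1* (ENSG00000125968) lay lower in every si-KRT7 library, while the feedback genes *SMAD7* and *SKIL* overlapped between the groups. *ID1* was at 551, 539 and 564 CPM in si-Control and at 377, 501 and 375 CPM in si-KRT7 replicates 1, 2 and 3. Each si-KRT7 value was below each si-Control value, with replicate 2 much the nearest to si-Control. The means were 551.3 ± 12.9 CPM in si-Control and 417.8 ± 72.5 CPM in si-KRT7 cells (SD, n = 3 each), a log2 fold change of -0.40 (95% interval -0.67 to -0.13, adjusted p = 0.121 in edgeR). Without replicate 2 it was -0.56 (95% interval -0.62 to -0.49, adjusted p = 3.79e-12 in edgeR).

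*SMAD7* (ENSG00000101665), which blocks receptor access of SMAD2 and SMAD3, was at 13.8, 10.9 and 11.1 CPM in si-Control and at 11.7, 10.8 and 11.8 CPM in si-KRT7 cells. Its log2 fold change was -0.06 (95% interval -0.35 to 0.23, adjusted p = 0.834 in edgeR), and -0.03 without replicate 2. The largest deviation within a group came from si-Control replicate 1, and *SMAD7* had the lowest counts of the 9, 296 to 476 per library.

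*SKIL* (ENSG00000136603), whose protein binds SMAD complexes and represses their targets, was at 111, 108 and 100.3 CPM in si-Control and at 106, 84.9 and 112 CPM in si-KRT7 cells. As for *TGFBR2*, the si-KRT7 replicates 1 and 3 were within or near the si-Control range and replicate 2 was the lowest of all 6 libraries. The log2 fold change was -0.08 (95% interval -0.33 to 0.18, adjusted p = 0.765 in edgeR) with all libraries and 0.03 (95% interval -0.07 to 0.12, adjusted p = 0.660 in edgeR) without replicate 2. Neither *SMAD7* nor *SKIL* passed the limit in any fit, and without replicate 2 the interval for *SKIL* ended at 0.12 while that for *SMAD7* reached 0.21.

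**Figure D2:**
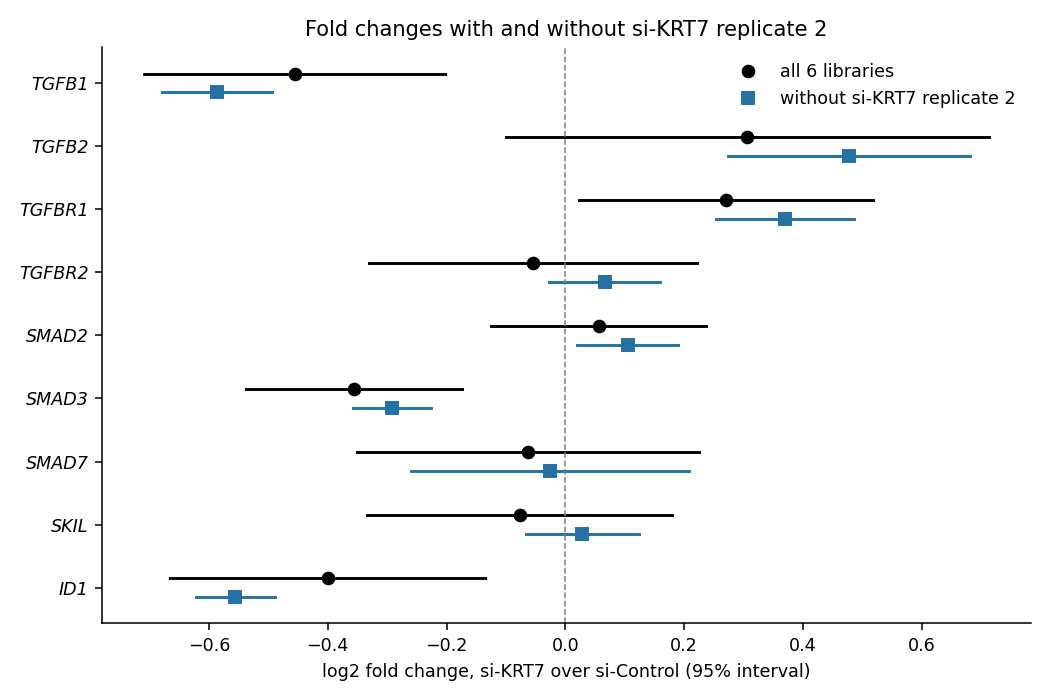
Log2 fold change of si-KRT7 over si-Control (horizontal axis) for each of the 9 genes from edgeR, with 95% intervals, using all 6 libraries (black circles) or leaving out si-KRT7 replicate 2 (blue squares). *TGFB1*, *SMAD3*, *SMAD7* and *ID1* lie to the left of 0 and *TGFB2*, *TGFBR1* and *SMAD2* to the right in both fits. *TGFBR2* and *SKIL* change sign. The intervals of *TGFB1*, *SMAD3*, *ID1* and *TGFBR1* exclude 0 in both fits. Replicate 2 was left out after its distance from its group was seen, which narrows the blue intervals.

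For each of *TGFB1*, *TGFBR1*, *SMAD3* and *ID1* an exact permutation test of log2 CPM, two-sided, returned p = 0.1, the smallest value that 3 libraries against 3 allow. That value arises where the groups do not overlap, so it restates the lack of overlap given above, which 24.4% of all genes tested shared. For the other 5 genes the same exact permutation test gave between 0.3 (*TGFB2*) and 1 (*TGFBR2*). The 95% intervals above cover each gene on its own and are not widened for the number of genes tested.

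Relative to the si-Control mean, the 9 genes fell into several arrangements of the si-KRT7 libraries. *TGFB1* was at 65.1% and 68.4% in replicates 1 and 3 and at 85.3% in replicate 2, and *ID1* at 68.4%, 68.0% and 91.0% in the same order. *TGFBR1* was at 132% and 127% in replicates 1 and 3 and at 103% in replicate 2, and *TGFB2* at 143%, 136% and 91.2%. *SMAD2* was at 108%, 107% and 96.3%. For these 5 genes replicate 2 was thus nearer to the si-Control mean than replicates 1 and 3 were.

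For *TGFBR2*, *SKIL*, *SMAD3* and *SMAD7* replicate 2 was the farther one. *TGFBR2* was at 104% and 106% in replicates 1 and 3 and at 78.7% in replicate 2. *SKIL* was at 99.7%, 105.0% and 79.7% in the same order, and *SMAD3* at 82.0%, 81.7% and 70.7%. *SMAD7* was at 97.7%, 99.3% and 90.2%, where the si-Control libraries spanned 91.5% to 116%. The position of replicate 2 between the groups therefore differed from gene to gene within the pathway.

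Replicates 1 and 3 of si-KRT7, by contrast, lay close together, with a gap between 0.01 log2 units for *SMAD3* and 0.08 for *TGFB2*. This gap was not computed for other genes, and the 2 libraries correlated at 0.992 over all genes tested. Over all genes tested, the absolute distance of replicate 2 from the mean of replicates 1 and 3 had a median of 0.34 log2 units. Among the 9 genes this distance was between 0.13 (*SMAD7*) and 0.61 (*TGFB2*), and *TGFB2* exceeded 81.3% of all genes tested.

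**Figure D3:**
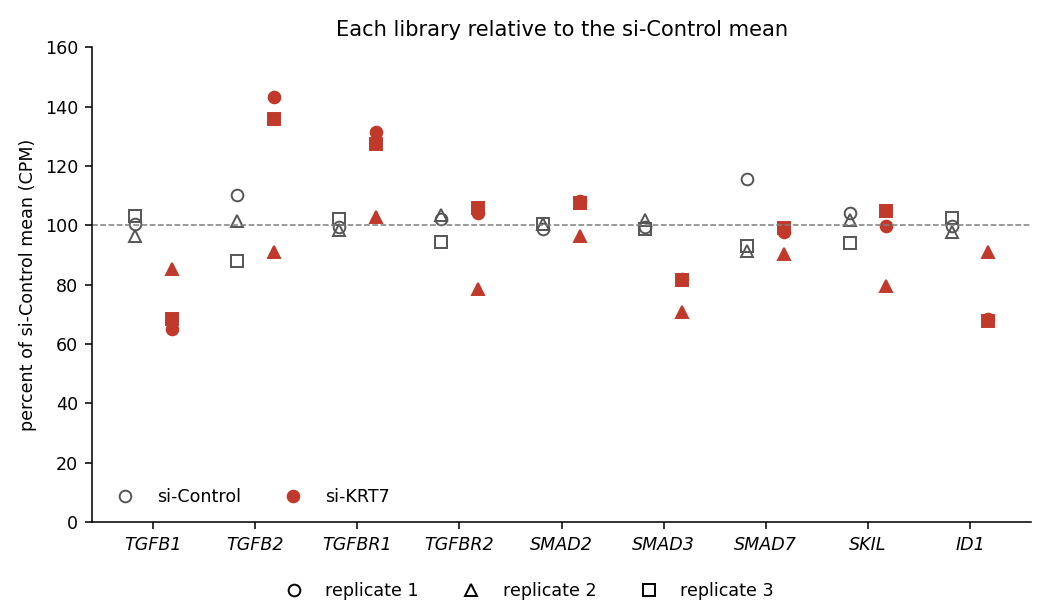
CPM of each library as a percentage of the si-Control mean (vertical axis, dashed line at 100) for the 9 genes, with open grey markers for si-Control, filled red markers for si-KRT7 and marker shape giving the replicate number. Replicate 2 of si-KRT7 (filled triangle) is nearer to 100 than replicates 1 and 3 for *TGFB1*, *TGFB2*, *TGFBR1*, *SMAD2* and *ID1*, and farther below it for *TGFBR2*, *SMAD3*, *SMAD7* and *SKIL*.

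Ratios of CPM within a library were compared for 3 pairs of genes with related roles, since gene length cancels when a ratio is set against the same ratio in another library. The log2 ratio of *SMAD3* to *SMAD2* was 2.14, 2.15 and 2.11 in si-Control replicates 1, 2 and 3 and 1.73, 1.69 and 1.74 in si-KRT7 replicates 1, 2 and 3. The groups did not overlap and replicate 2 was close to its group. How often other pairs of genes separate the groups was not computed. Taken singly, *SMAD3* had a log2 fold change of -0.36 and *SMAD2* of 0.06. The means were 2.13 ± 0.02 in si-Control and 1.72 ± 0.03 in si-KRT7 cells (SD, n = 3 each), a difference of -0.41 on the log2 scale, and an exact permutation test, two-sided, returned p = 0.1 (adjusted p = 0.15 over the 3 ratios), 0.1 being its smallest possible value.

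The log2 ratio of *TGFBR2* to *TGFBR1* was 1.22, 1.26 and 1.08 in the si-Control libraries and 0.85, 0.80 and 0.92 in si-KRT7 replicates 1, 2 and 3. It too was lower in every si-KRT7 library, with a mean difference of -0.33 on the log2 scale (exact permutation p = 0.1, adjusted p = 0.15). Replicate 2 stayed close to its group on this ratio although both receptor genes were lower in it than in replicates 1 and 3. The mean differences for the SMAD and receptor ratios were -0.40 and -0.30 without replicate 2.

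The log2 ratio of *TGFB2* to *TGFB1* was -3.04, -3.10 and -3.40 in si-Control and -2.04, -3.08 and -2.19 in si-KRT7 replicates 1, 2 and 3. Here replicate 2 lay among the si-Control libraries, so the groups overlapped. The mean difference was 0.75 (exact permutation p = 0.2, adjusted p = 0.2) with all libraries and 1.07 without replicate 2.

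**Figure D4:**
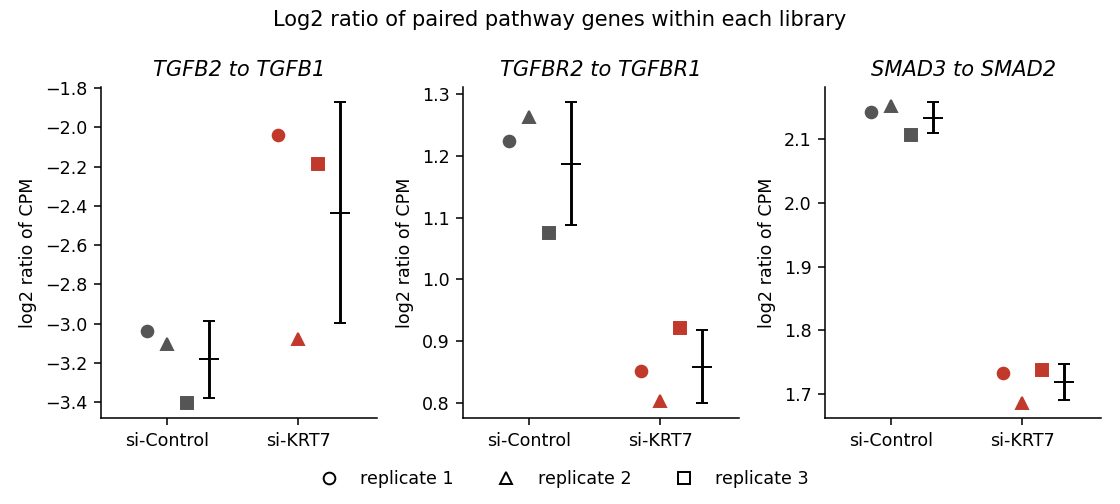
Log2 ratio of CPM (vertical axis, a separate scale that does not start at 0 in each panel) of *TGFB2* to *TGFB1*, *TGFBR2* to *TGFBR1* and *SMAD3* to *SMAD2* in each si-Control (grey) and si-KRT7 (red) library, with marker shape giving the replicate number and bars the mean ± SD (n = 3). The si-KRT7 libraries lie below the si-Control libraries for the receptor and SMAD ratios, whereas si-KRT7 replicate 2 (triangle) lies among the si-Control libraries for the ligand ratio.

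The 2 identifiers whose log2 CPM followed that of *SMAD3* most closely over the 6 libraries were ENSG00000149948 and ENSG00000105974, with Pearson correlations of 0.9996 and 0.9989. The files do not pair these identifiers with gene names. These 6 points fall into 2 groups and 306 genes had a correlation over 0.95, so the values are a description only.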

How the data were processed

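Poly(A) RNA of 3 si-Control and 3 si-KRT7 libraries was copied from random primers and sequenced on the DNBSEQ platform. The table deposited by the authors holds raw read counts for each gene. The submitters' processing notes name STAR 2.7.11b and the mouse build GRCm39, while the identifiers are human. The counting tool, the annotation and whether strand was kept are not given in the sources used here. In R 4.3.3, genes were filtered with filterByExpr, scaled with TMM and tested with edgeR 4.0.16 (glmQLFit, glmQLFTest) on all 6 libraries, with Benjamini-Hochberg adjustment over the 15736 genes tested. Each other fit was adjusted over its own genes tested, 16202 without si-KRT7 replicate 2 and 30543 without a filter on counts. The shares of all genes called are over those numbers, and the shares free of overlap are over the 15736. Standard errors and 95% intervals were derived from the F statistic. Log2 CPM used a prior count of 2. The genes named were the members and the 2 identifiers most like the member with the smallest p. Members and lists were chosen with earlier results of these data known. Other pathway genes, *KRT7*, cell type markers, gene lengths, coordinates and sequences were not analysed here, because 0 of the 30543 identifiers matched the mouse name tables. Every pair of libraries had a mean chi-square per gene of at least 3.70, so none was counted as a repeat. Alternatives were the DESeq2 1.42.0 Wald test on the filtered genes, other scalings, limma 3.58.1 with voom, other filters, each library left out and a replicate block. The edgeR, DESeq2 and voom code was also run on simulated counts with a common dispersion for all genes and no outlying library. That setting differs from these data, so it does not bear on the calls that depend on si-KRT7 replicate 2.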

Additional observations from a re-analysis of the deposited data

How the results depend on the processing

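The number of the 9 genes with an adjusted p under 0.05 was 0 with all 6 libraries in edgeR. It stayed 0 with DESeq2's size factors, with library size only, with limma-voom, with at least 10 counts in every library and with the replicate block. It was 3 with the DESeq2 Wald test, 3 without a filter on counts and 5 with limma-voom and sample quality weights. With each library left out in turn it ran from 0 to 6, the highest without si-KRT7 replicate 2 and 0 in every other. The number called thus differed with the test, the filter and that library, whose quality weight was 0.0973 where the others had 1.20 or more.

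Over all genes, edgeR called 325 by the adjusted p and 46 when a log2 fold change beyond 1 was also asked. These numbers became 1148 and 103 with the DESeq2 Wald test, 1347 and 154 without a filter, 6858 and 443 with sample quality weights, and 76 and 25 with the replicate block. They ran from 6 to 6944 and from 6 to 356 when each library was left out, the lowest without si-Control replicate 1 or 2 (6 and 6 each) and the highest without si-KRT7 replicate 2. Without si-Control replicate 3 they were 10 and 7, without si-KRT7 replicate 1 they were 87 and 20, and without si-KRT7 replicate 3 they were 36 and 15. The cause was not tested.

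With the replicate block the adjusted p was 0.154 for *TGFB1*, 0.181 for *SMAD3* and 0.184 for *ID1*, and it changed no call among the 9 genes. Across genes, deviations from the group means correlated between libraries of equal number by 0.0520, -0.0798 and -0.0728, which gives no sign of pairing.

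*TGFB1*, *SMAD3* and *ID1* were lower and *TGFB2*, *TGFBR1* and *SMAD2* higher in all 14 alternatives run for each. *TGFBR2* turned to 0.052 and *SKIL* to 0.021 with sample quality weights. With each library left out in turn, *TGFBR2* ran from -0.13 to 0.066 and *SKIL* from -0.16 to 0.029, both highest without si-KRT7 replicate 2, and *SMAD7* from -0.13 to 0.053, highest without si-Control replicate 1. None of these 3 genes passed the limit in any alternative. No ratio changed sign, and with DESeq2's size factors or library size only no level of the 9 genes moved by as much as 1 SD between replicates. Leaving out a library cannot move a mean of 3 that far, so it does not test the levels. No alternative was run for *SMAD4* or for the other pathway genes, which were not analysed here.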
